A study of Mus musculus with 8 samples.

Results

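A set of 9 genes of dopamine signalling in the striatum was followed in single nuclei of mouse forebrain: Drd1, Drd2, Adora2a, Gnal, Adcy5, Pde10a, Pde1b, Rgs9 and Ppp1r1b. They were taken by symbol from the 54232 features of the deposited tables, so the list is 9 of 54232. No cut on a measured value chose it, but it was drawn up with earlier results of these data known. All tissue was a frozen block of forebrain beside the lesion site, and all donors were Swiss Webster males 10 weeks old. Single-nucleus 3′ RNA libraries were made in 4 groups of 2: control, BCAS, traumatic brain injury (TBI), and both surgeries together (BCAS+TBI). BCAS stands in the labels only as an abbreviation, linked by the title of the study to hypoperfusion of the brain. Neither the time after surgery, nor a sham procedure, nor the number of mice per library is given. The replicates are numbered as biological replicates. The design asks what each surgery does alone and whether BCAS changes the response to TBI.

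These genes form a signalling chain in striatal projection neurons, the GABA-releasing cells that make up most of the striatum. Drd1 encodes the D1 receptor, which acts through the G protein subunit encoded by Gnal to stimulate the adenylyl cyclase encoded by Adcy5, and Drd2 encodes the D2 receptor, which inhibits that cyclase. Adora2a encodes an adenosine receptor that stimulates it in the cells that carry D2 receptors. Pde10a and Pde1b encode phosphodiesterases that break down cyclic nucleotides, Rgs9 encodes a protein that speeds the switching off of G proteins, and Ppp1r1b encodes DARPP-32, a phosphatase inhibitor controlled by protein kinase A. Neurons of the direct pathway are known for Drd1, Tac1 and Pdyn, and those of the indirect pathway for Drd2, Adora2a and Penk.

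Of 53390 barcodes, 45565 nuclei were kept, and any pair of libraries shared 5 to 20 barcode sequences. Library totals ran from 28118725 to 56135192 UMIs (unique molecular identifiers, the counted RNA molecules). The libraries fell into 2 sets by total, each with 1 library of every group. Control 1, BCAS 1, TBI 1 and BCAS+TBI 2 (set 1) held 28118725 to 33363564 UMIs, with 1.204 to 2.77% of them mitochondrial. The other 4 libraries (set 2) held 42651388 to 56135192 UMIs, with 0.511 to 1.04% mitochondrial. The largest member differences between groups are given with and without the library set as a term.

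Striatal projection nuclei were taken as clusters with at least 5 times more UMIs of GABAergic than of excitatory markers and with Rarb, Meis2 and Gad1 each at least 2-fold above all other nuclei. The 9 genes were left out of the clustering. Among 35 clusters, 1 passed, with 1297 nuclei and Rarb 18.6-fold, Meis2 9.89-fold and Gad1 2.58-fold above the rest. Beside Rarb and Meis2, which the rule fixed, its leading genes included Rgs9, Mhrt and Penk, the last known from striatal projection neurons of the indirect pathway. It held 96 to 239 nuclei per library. Another 2 clusters with 3843 nuclei were other GABAergic neurons, and 14 clusters with 17973 nuclei were excitatory neurons.

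On GRCm38 the annotation places Drd1 at chr13:54051183-54055705, Drd2 at chr9:49340627-49408177 and Adora2a at chr10:75316877-75334784. Adcy5 lies at chr16:35154877-35305738. Pde10a lies at chr17:8525372-8986648, Pde1b at chr15:103503034-103530052, Rgs9 at chr11:109225355-109298129 and Ppp1r1b at chr11:98348404-98357796. Gnal overlaps Chmp1b on its own strand and Mppe1 on the other, Adcy5 overlaps Gm49702 on its own strand, and Pde10a and Ppp1r1b overlap Gm17087 and 1700003D09Rik on the other, so reads in those stretches may not be attributable to 1 gene.

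RefSeq promoter windows on GRCm38.p6 (250 bases before to 50 after a start) were given for 6 of the 9 genes, in 10 windows. They were searched on both strands for TGACAG, the core bound by MEIS proteins, for AGGTCA, the half-site of retinoic acid receptors, and for TGACGTCA, the cyclic AMP response element, since Meis2 and Rarb define the gate and the pathway sets cyclic AMP. TGACAG was found in 2 of the 3 Pde1b windows and in none of the other 7, and the other 2 motifs were in none of the 10. Among 32851 windows of the same length, 19.2% held TGACAG, 16.3% held AGGTCA and 1.79% held TGACGTCA. The upstream bases are shown for the 2 receptors that divide striatal nuclei and for the 1 gene with a match upstream of its gene body, all 5′ to 3′, with TGACAG or its reverse complement in capitals.
Drd1 (chr13:54055706-54055908, minus strand): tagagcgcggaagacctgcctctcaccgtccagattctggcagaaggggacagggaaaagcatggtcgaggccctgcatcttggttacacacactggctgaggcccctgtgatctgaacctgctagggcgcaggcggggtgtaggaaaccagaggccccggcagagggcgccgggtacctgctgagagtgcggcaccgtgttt
Drd2 (chr9:49340153-49340402, plus strand): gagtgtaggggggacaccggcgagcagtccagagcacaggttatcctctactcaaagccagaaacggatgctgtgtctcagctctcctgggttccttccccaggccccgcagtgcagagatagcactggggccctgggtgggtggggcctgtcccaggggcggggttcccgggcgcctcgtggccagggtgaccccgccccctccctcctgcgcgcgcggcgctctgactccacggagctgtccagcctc
Pde1b (chr15:103502784-103503033, plus strand): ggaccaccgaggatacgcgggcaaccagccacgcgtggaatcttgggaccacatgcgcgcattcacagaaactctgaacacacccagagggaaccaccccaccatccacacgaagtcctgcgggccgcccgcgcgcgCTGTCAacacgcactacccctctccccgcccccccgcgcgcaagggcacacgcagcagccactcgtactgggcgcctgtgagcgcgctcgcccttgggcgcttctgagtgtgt
The Drd1 and Drd2 stretches hold no capitals, and the Pde1b stretch holds 1 match on its minus strand.

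All 9 genes were higher in striatal projection nuclei than in other GABAergic and in excitatory nuclei in 8 of 8 libraries, and for each gene the lowest striatal library lay above the highest library of the other class. Against other GABAergic nuclei, 10.5% of the 9861 genes tested in striatal nuclei had such a gap in that direction, and against excitatory nuclei 7.65%. These clusters were found from the same nuclei, so the values are a description and carry no test. Levels are in CPM, which divides UMIs by the total of the class in that library. In 3′ counts they compare 1 gene between nuclei, not 2 genes with each other.

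The receptors were low in the other 2 neuron classes. In control 1 and 2 Drd1 was at 105.2 and 77.9 CPM, in BCAS 1 and 2 at 56.2 and 62.3 CPM, in TBI 1 and 2 at 113.3 and 47.8 CPM, and in BCAS+TBI 1 and 2 at 83.2 and 159.7 CPM. In other GABAergic nuclei Drd1 ran from 4.63 to 8.63 CPM and in excitatory nuclei from 3.71 to 7.68 CPM, and the striatal mean of 88.2 ± 36.8 CPM (SD, n = 8) was 12.9-fold and 17.5-fold higher. The striatal libraries differed among themselves by more than 3-fold, yet none overlapped the other classes.
In the same order, the 8 libraries had Drd2 at 116.3, 155.8, 218, 167.8, 140.9, 104.2, 105.8 and 117 CPM, with BCAS 1 highest and TBI 2 lowest. Its highest level in the other 2 neuron classes was 6.31 CPM, in the other GABAergic nuclei of BCAS 1, and the striatal mean was 30.8-fold above other GABAergic and 56.7-fold above excitatory nuclei.
Adora2a was at 59.5, 119.7, 159.6, 74.9, 115.2, 53.5, 64.3 and 109.6 CPM in that order, again highest in BCAS 1 and lowest in TBI 2. It reached at most 2.00 CPM in other GABAergic nuclei and 0.872 CPM in excitatory nuclei, and its folds of 117 and 192 were the largest of the 9 genes in these 2 comparisons, resting on 22 and 62 UMIs in the lower classes.

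**Figure D1:**
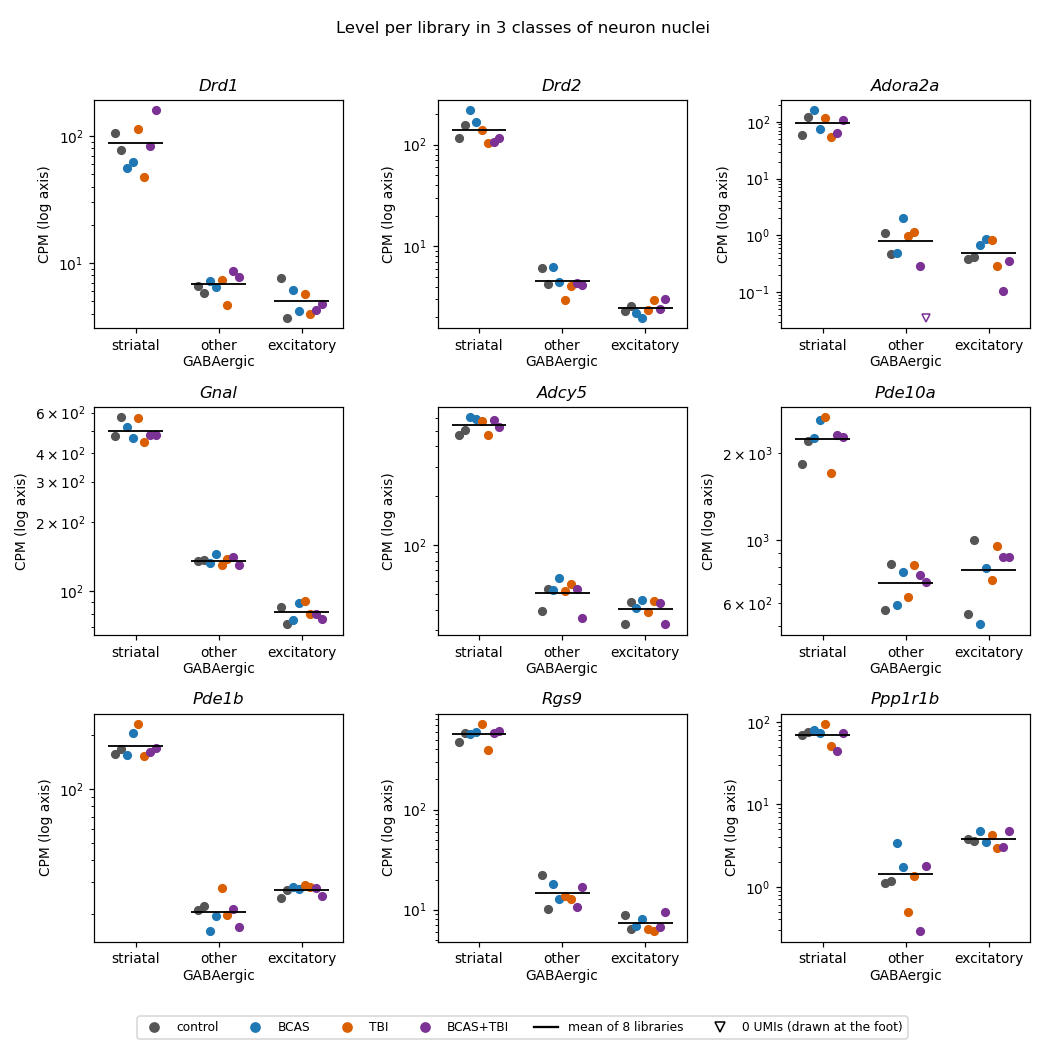
Level of each of the 9 genes in CPM (log axis) in striatal projection, other GABAergic and excitatory nuclei; each point is 1 library coloured by group, the line is the mean of 8 libraries, and an open triangle marks a library with 0 UMIs. For every gene the 8 striatal points lie above all points of the other classes, with the narrowest separation for Pde10a and Gnal.

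The genes between receptor and cyclic AMP were also expressed in other neurons. Gnal, on chr18:67088216-67226792, ran from 448.2 to 573.3 CPM in striatal nuclei, from 129.7 to 145.3 in other GABAergic and from 71.7 to 90.9 in excitatory nuclei, a 3.68-fold and a 6.19-fold difference in means. Its 8 striatal libraries varied little for a difference of that size. Adcy5 ran from 467.8 to 604.5 CPM against 35.4 to 62.9 and 32.5 to 46.1 CPM, or 10.6-fold and 13.3-fold. Pde10a ran from 1715 to 2680 CPM in striatal nuclei, from 566.5 to 823 in other GABAergic and from 506 to 1002 in excitatory nuclei. Its folds of 3.17 and 2.86 were the smallest of the 9, and 87.6 to 89.1% of nuclei in the 3 classes held a Pde10a UMI. Pde1b ran from 152.9 to 231.3 CPM against 16.01 to 27.9 and 24.7 to 28.9 CPM, or 8.52-fold and 6.42-fold.
The 2 genes that act on G proteins and on phosphatase were among the more restricted. Rgs9 ran from 396.6 to 718.6 CPM in striatal nuclei, against 10.1 to 22.1 in other GABAergic and 6.08 to 9.56 in excitatory nuclei (38.9-fold and 77-fold). Ppp1r1b ran from 44.1 to 95.2 CPM, against 0.288 to 3.40 and 2.93 to 4.78 CPM (49.8-fold and 18.4-fold).
Striatal nuclei made up 2.85% of nuclei and 2.51% of UMIs. They held 49.8% of all Adora2a UMIs, 40.6% of Rgs9, 35.2% of Drd2, 28.0% of Ppp1r1b and 27.4% of Drd1 UMIs. Their part was smaller for Adcy5 (19.4%), Pde1b (14.6%), Gnal (12.1%) and Pde10a (7.87%).

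Another comparison used the gate on single nuclei and no clusters. It set 1042 nuclei with at least 1 UMI each of Rarb, Meis2 and Gad1 against 3081 nuclei with Gad1 and none of Rarb, Meis2, Slc17a7 and Slc17a6. All 9 genes were higher in gated nuclei (edgeR with library as a block, adjusted p over all genes), where 46.9% of the 14079 genes tested passed and 25.2% passed in that direction. Adora2a was higher by 4.50 on the log2 scale (SE 0.25, edgeR adjusted p = 1.06e-10), from 0.358 to 2.74 CPM over libraries in the other nuclei to 13.9 to 48.3 CPM in the gated ones. It passed the filter on low counts through its gated sums alone. Without that filter all 9 genes were again called. The log2 differences were 3.73 for Ppp1r1b, 3.28 for Rgs9, 2.70 for Drd2, 1.98 for Drd1, 1.61 for Adcy5 and 1.45 for Pde1b. They were smallest for Gnal (0.55, SE 0.13, edgeR adjusted p = 0.00204) and Pde10a (0.54, SE 0.09, edgeR adjusted p = 8.82e-05), whose CPM overlapped between the 2 kinds of nuclei although both were higher in 8 of 8 libraries. The gate was not pure: 450 of the 1042 gated nuclei (43.2%) lay in the striatal cluster, and 356 lay in 1 cluster led by Prr5l, St18, Aspa and the myelin gene Mag, with a median of 11289 UMIs and a median doublet score of 0.123. Gated nuclei had a median of 9501 UMIs and the others 5288, and the part of this gap in the differences was not tested.

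In the same comparison, where 43.2% of gated nuclei lay in the striatal cluster, genes linked to the pathway moved in both directions. Of 11 genes of striatal identity, 8 rose and 2 fell (median log2 difference 0.86, against 0.0071 for all genes tested), among them the transcription factors Foxp1 (1.60) and Foxp2 (2.39) and Penk, the enkephalin precursor (1.86). Of 15 G protein partners, 8 rose and 1 fell (median 0.22): Gng7, the gamma subunit that pairs with the product of Gnal in striatum, rose by 1.69, Ric8b, a chaperone of that product, rose by 0.47, and Gnas, the widely expressed relative of Gnal, fell by 0.82 on the log2 scale. Of 21 genes of cyclic AMP and protein kinase A, 7 rose and 7 fell (median -0.03), with the phosphodiesterases Pde7b (2.03) and Pde4b (1.94) highest. Of 12 genes of the DARPP-32 network, 6 rose and none fell (median 0.22), led by Arpp21 (1.89), another substrate of protein kinase A, and Ppp3ca (1.21), a calcineurin catalytic subunit. Of 9 tested among 12 striatal receptors and peptides, 3 rose and 3 fell (median -0.06), among them Chrm1 (0.94) and Cnr1, the cannabinoid receptor, which fell by 2.32 on the log2 scale. Cnr1 was also a leading gene of the other GABAergic cluster led by Vip. Of the 4 genes of dopamine synthesis and uptake, 2 were tested and Ddc rose (0.67). Drd3, Drd4 and Drd5 passed no filter here; in the striatal cluster they had 89, 1 and 5 UMIs.

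The striatal class was not uniform. At a finer clustering it split into 910 and 387 nuclei, and in the smaller sub-cluster, led by Pbx3, Chst9, Ankfn1, Meis2, Tshz1 and Foxp2, 8 of the 9 genes were lower with no overlap of libraries. The share of all 9861 genes lower there without overlap was 3.61%. The sub-clusters come from the same nuclei, so this too is a description. Both finer clusters passed the gate, with Rarb 23.2-fold above other nuclei in the larger and 3.27-fold in the smaller. The name of the class rests on that gate, and whether the smaller sub-cluster consists of striatal projection neurons was not tested. Drd2 was at 141 to 280.7 CPM in the larger sub-cluster and at 0 to 10.1 CPM in the smaller, where 3 libraries had no Drd2 UMI and all 8 together had 8 (41.0-fold). Adora2a was at 77.9 to 207.6 against 0 to 10.1 CPM (29.4-fold), and Pde1b at 195.9 to 285.9 against 13.4 to 37.7 CPM (9.42-fold). Rgs9, Ppp1r1b, Pde10a and Adcy5 differed by 6.83-fold, 5.16-fold, 4.72-fold and 4.08-fold, and Gnal by 2.37-fold. Drd1 was the exception. It was at 53.4 to 170.5 CPM in the larger and 37.7 to 111.5 CPM in the smaller sub-cluster, higher in the larger in 8 of 8 libraries, but the ranges overlapped (1.48-fold).

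**Figure D2:**
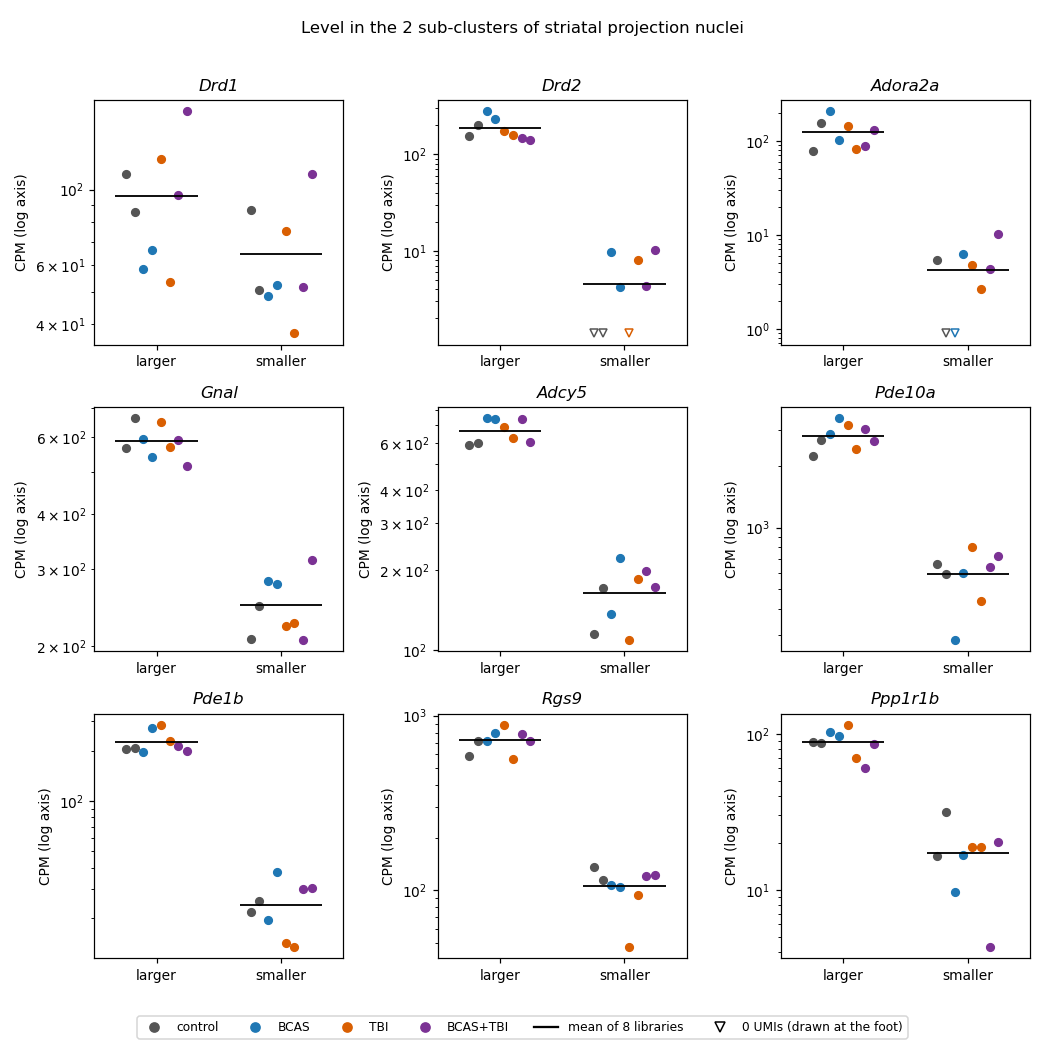
Level of each gene in CPM (log axis) in the larger (910 nuclei) and smaller (387 nuclei) sub-cluster of the nuclei classed as striatal projection by the gate. Points are libraries coloured by group, lines are means of 8 libraries and open triangles are libraries with 0 UMIs. Drd1 is the gene whose libraries overlap between the 2 sub-clusters, while Drd2 and Adora2a fall to 10.1 CPM or less in the smaller.

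Drd1 and Drd2 were seldom in the same nucleus. Among the 1297 striatal nuclei, 333 held Drd1 UMIs and no Drd2, 333 held Drd2 and no Drd1, 10 held both and 621 held neither. Both were found in 0.771% of nuclei (95% Wilson interval 0.419 to 1.41%, counting error only), where independent detection at the same rates would give 6.99%. By library the nuclei with both were 0 to 3. After thinning every nucleus to 2000 UMIs, which left out 99 nuclei, 1 of 1198 held both (0.0835%, against 2.48%). Detection fell with depth: 26.4% of striatal nuclei held a UMI of Drd1 and 26.4% of Drd2, and 14.7% and 16.9% after thinning. In excitatory nuclei, which were deeper (median 6381 UMIs against 4701), the shares were 3.04% and 1.60%, and 0.910% and 0.417% after thinning. Detection also differed between the striatal sub-clusters. Neither receptor was found in 34.9% of nuclei of the larger and 78.3% of the smaller, or 60.0% and 88.2% after thinning.

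Nuclei with only Drd1 and nuclei with only Drd2 were then compared within each library, at medians of 5414 and 5468 UMIs. Drd1 and Drd2 define the 2 kinds and are no result. Of the other 7 genes, 1 passed the test, Adora2a, where 10.1% of the 3538 genes tested passed and 5.77% were lower in Drd1-only nuclei. Adora2a passed the filter on low counts through its Drd2-only sums alone. Without that filter it was again the 1 member called. In Drd2-only nuclei Adora2a was at 174.3, 258.3, 297.5, 214.7, 352.5, 155.6, 236.5 and 286.4 CPM, in the order control, BCAS, TBI, BCAS+TBI with 2 libraries each. In Drd1-only nuclei it was at 4.98 CPM in control 1, 10.3 CPM in BCAS+TBI 2 and 0 in the other 6 libraries. The pooled counts were 492 UMIs against 3, a ratio of 159 (95% counting interval 54.2 to 775), and the fitted log2 difference, which depends on the prior count, was -6.96 (SE 0.31, edgeR adjusted p = 1.49e-15), lower in Drd1-only nuclei in 8 of 8 libraries.
The 6 genes downstream of the receptors overlapped between the 2 kinds. Gnal, which couples both receptors that stimulate the cyclase, was at 444.1 to 639.9 CPM in Drd1-only and 534.9 to 693.7 CPM in Drd2-only nuclei (log2 difference -0.26, SE 0.09, edgeR adjusted p = 0.0643). Rgs9 differed by -0.26 (SE 0.11, edgeR adjusted p = 0.155) and Pde10a by -0.21 (SE 0.09, edgeR adjusted p = 0.171). Pde1b (-0.19), Adcy5 (-0.14) and Ppp1r1b (-0.00082) were nearer to 0, with SEs of 0.12, 0.10 and 0.18. Within the larger sub-cluster alone, where Adora2a differed by -6.71, the values were -0.10 for Gnal, -0.03 for Rgs9, 0.0087 for Pde10a, 0.08 for Pde1b, 0.03 for Adcy5 and 0.21 for Ppp1r1b, so the small differences of Gnal, Rgs9 and Pde10a were smaller still without the sub-cluster that carries Drd1 and little Drd2. A test of counts simulated at these depths recovered 61.5% of 2-fold changes. Those counts had the same fixed spread for every gene and no difference between libraries other than depth.

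**Figure D3:**
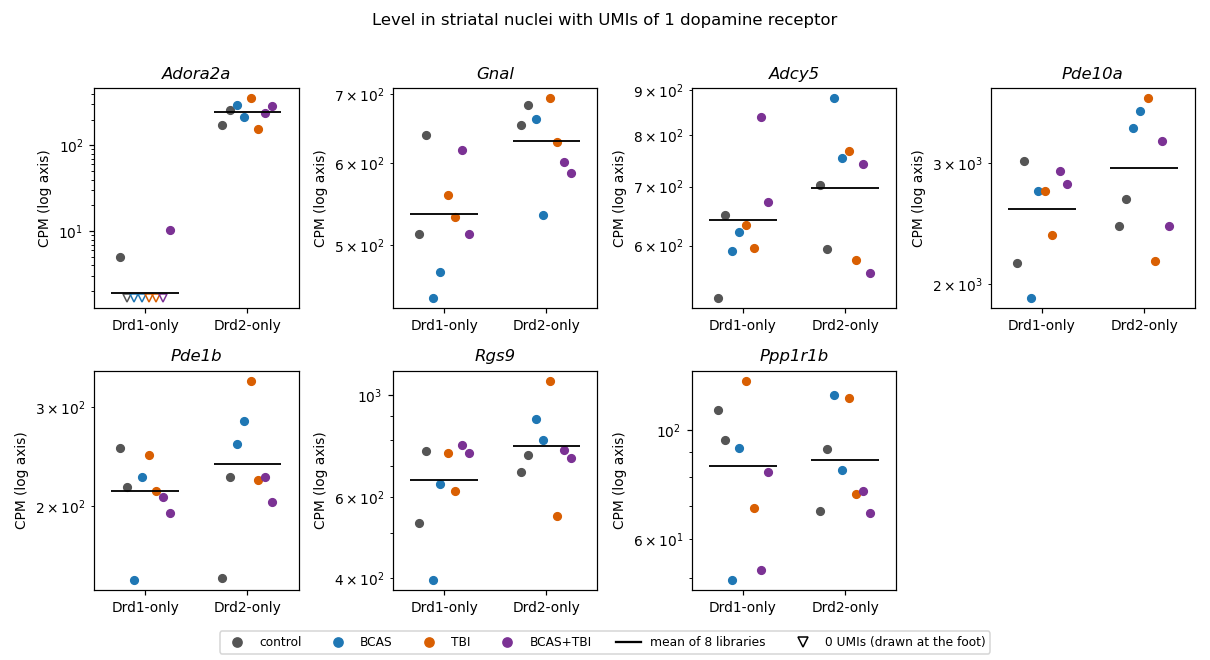
Level of 7 genes in CPM (log axis) in striatal nuclei with only Drd1 (333 nuclei) or only Drd2 (333 nuclei); points are libraries coloured by group, lines are means of 8 libraries and open triangles are libraries with 0 UMIs. Adora2a separates, with 6 Drd1-only libraries at 0, and the other 6 genes overlap.

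Other genes of the pathway differed between the 2 kinds, in tests over all striatal nuclei with both sub-clusters included. In the smaller sub-cluster, where Foxp2 was a leading gene, 20.2% of nuclei held Drd1 and 1.55% held Drd2. Values within the larger sub-cluster alone are not given for these genes, so the part of the sub-clusters was not separated. Tac1, the substance P precursor (5.64), and the transcription factors Ebf1 (4.77) and Foxp2 (2.66) were higher in Drd1-only nuclei on the log2 scale, and Penk was lower (-3.73). In all, 3 of 7 tested genes of striatal identity were higher and 3 lower. Of 8 tested G protein partners, 3 were lower in Drd1-only nuclei and none higher: Gnas (-1.04), Gnb5 (-0.71), the beta subunit that binds the product of Rgs9, and Gng7 (-0.42). Of 15 genes of cyclic AMP and protein kinase A, Adcy2, another adenylyl cyclase, was higher (1.58), and Pde4b (-0.66), Pde4d (-0.64) and Pde7b (-0.28) were lower. In the DARPP-32 network 2 of 8 tested genes were lower, Arpp19 (-0.68) and Ppp2r2a (-0.57). The medians of these 3 lists were -0.28, -0.09 and -0.11, against -0.0040 for all genes tested.

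No gene of the 9 differed between the surgical groups in striatal nuclei by the adjusted test, and no other gene did in the model with the groups alone. In each of the 5 contrasts edgeR called 0 of 44502 gene and class pairs (0% of those tested), and DESeq2 also called 0. At an unadjusted p under 0.05, edgeR had 78 of 9861 striatal genes for TBI over both BCAS states (0.791%), 67 for BCAS over both TBI states (0.679%) and 96 for the interaction (0.974%), with 1, 0 and 0 of the 9 members among them. With the library set as a term, 2 pairs (0.00449%) were called for TBI, 2 (0.00449%) for BCAS+TBI against control and 0 (0%) in the other 3 contrasts, none of them a member. In counts simulated at these depths, the model with the groups alone recovered 84.0% of 4-fold and 8.0% of 2-fold changes with TBI. The simulated counts had the same fixed spread for every gene and no difference between library sets, unlike the data. In such counts 2-fold changes were mostly below the reach of the model, and recovery in the data was not measured. For no member did the 4 libraries with TBI and the 4 without, or those with and without BCAS, separate without overlap, where 1.42% and 1.22% of all genes did. In counts summed over a class, fewer nuclei of a subtype and less RNA per nucleus cannot be told apart. The mix of the 2 sub-clusters differed between libraries. The smaller, in which most members were lower, held from 31 of 150 striatal nuclei in BCAS+TBI 2 to 76 of 172 in TBI 2. The part of this mix in the differences between groups was not tested.

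**Figure D4:**
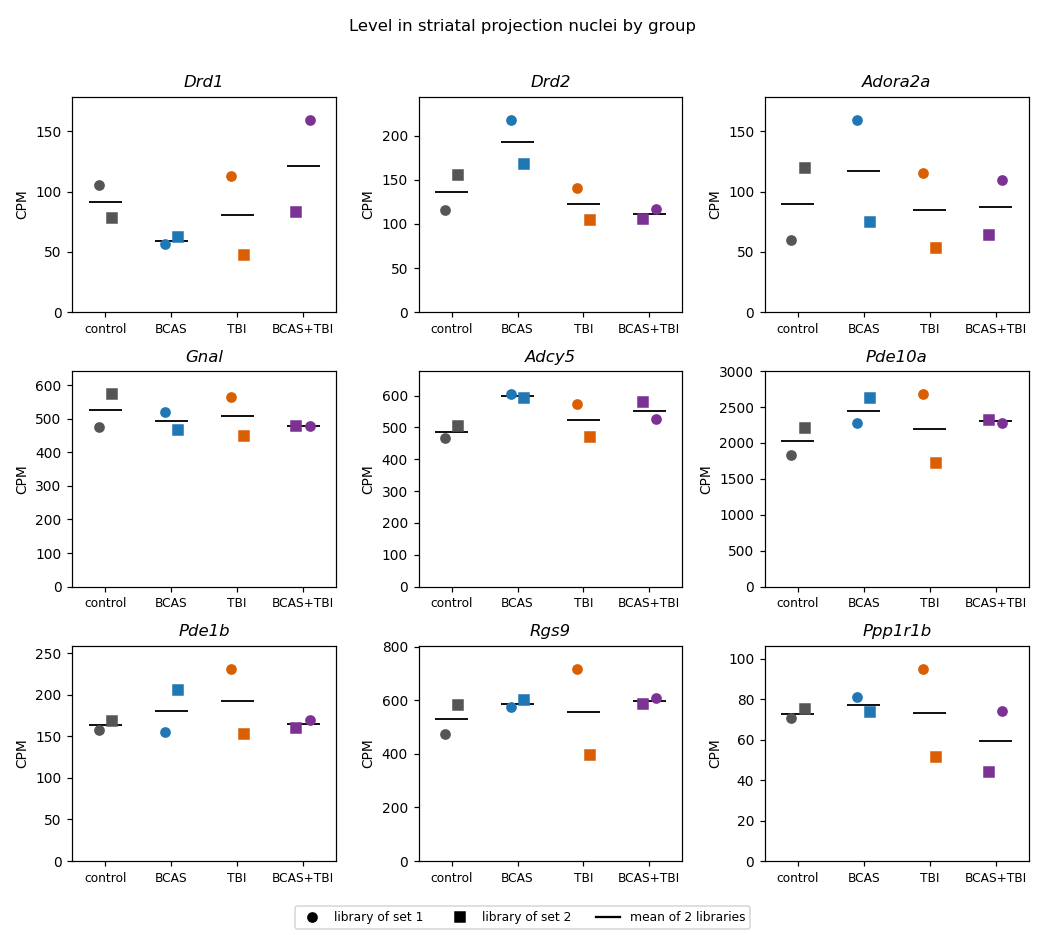
Level of each gene in CPM (axis from 0) in striatal projection nuclei by group; circles are libraries of set 1, squares libraries of set 2 and lines means of 2 libraries. In each panel the 4 libraries with TBI overlap the 4 without, and TBI 1 lies above TBI 2 for all 9 genes. The smaller sub-cluster held 49 of 220 striatal nuclei in TBI 1 and 76 of 172 in TBI 2, and its part in this gap was not tested.

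Drd2 came nearest to a difference with TBI. It was at 104.2 to 140.9 CPM in the 4 libraries with TBI (mean 117 ± 16.9 CPM, SD, n = 4) and at 116.3 to 218 CPM in the 4 without (mean 164 ± 41.9 CPM). The ranges overlapped through control 1, which lay below TBI 1 and BCAS+TBI 2. Within the larger sub-cluster alone Drd2 averaged 156 CPM with TBI and 217 CPM without, and these ranges also overlapped. The fitted log2 difference was -0.46 (SE 0.19, edgeR unadjusted p = 0.0350, adjusted p = 1.00), and with the library set as a term it was -0.46 (SE 0.14, edgeR unadjusted p = 0.00483, adjusted p = 1.00). Drd2 was the 1 member of 9 with an unadjusted p under 0.05 for TBI in either model, where 4.23% of striatal genes had one with the set. The difference was negative under all 29 settings tried, from -0.65 to -0.22. A constant sign was not particular to it. For TBI, Drd1 was positive under all 29, from 0.05 to 0.64, and for BCAS so were Adcy5 and Drd2. These settings refit the same libraries, so they are not independent of each other.
Drd1 was the member with the largest interaction. Its mean was 91.6 CPM in control and 59.3 in BCAS, and 80.5 in TBI and 121 in BCAS+TBI, so the BCAS mean was below control and the BCAS+TBI mean above TBI. The interaction was 1.18 (SE 0.59, edgeR unadjusted p = 0.0751, adjusted p = 1.00), or 1.02 with the library set (SE 0.36, edgeR unadjusted p = 0.00969, adjusted p = 0.995). Leaving out 1 library moved it from 0.69 (without BCAS+TBI 2) to 1.89 (without TBI 1). Drd2 had the opposite sign, -0.62 (SE 0.38, edgeR adjusted p = 1.00), or -0.61 with the set (edgeR unadjusted p = 0.0485, adjusted p = 0.995), so 2 of 9 members had an unadjusted p under 0.05 with the set, where 4.48% of striatal genes did. The Drd2 interaction ran from -0.90 to -0.36 with 1 library left out. The Drd1 libraries also differed by set, with means of 108.6 CPM in set 1 and 67.8 CPM in set 2, and 1 library of each group lies in each set.
The other members lay closer to 0. For TBI the log2 differences were 0.40 for Drd1, -0.24 for Adora2a and -0.20 for Ppp1r1b, and between -0.04 and 0.05 for Gnal, Adcy5, Pde10a, Pde1b and Rgs9, with SEs from 0.16 to 0.35 over these 8 genes. For BCAS all 9 lay between -0.13 (Ppp1r1b) and 0.18 (Adcy5). In BCAS+TBI against TBI, which asks what hypoperfusion adds to injury, Drd1 was the highest (0.57, SE 0.41, edgeR adjusted p = 1.00; 0.58 with the library set, edgeR unadjusted p = 0.0275, adjusted p = 1.00, the 1 of 9 members under 0.05 there against 3.53% of striatal genes) and Ppp1r1b the lowest (-0.34). With 1 library left out, this Drd1 difference ran from 0.07 (without BCAS+TBI 2) to 1.29 (without TBI 1). Against control, BCAS+TBI differed by 0.39 for Drd1, -0.30 for Drd2 and -0.33 for Ppp1r1b. These contrasts share libraries, so they are not independent of each other. The median over the 9 members was -0.0031 for TBI and 0.12 for BCAS, against 0.0070 and -0.01 for all striatal genes tested.

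**Figure D5:**
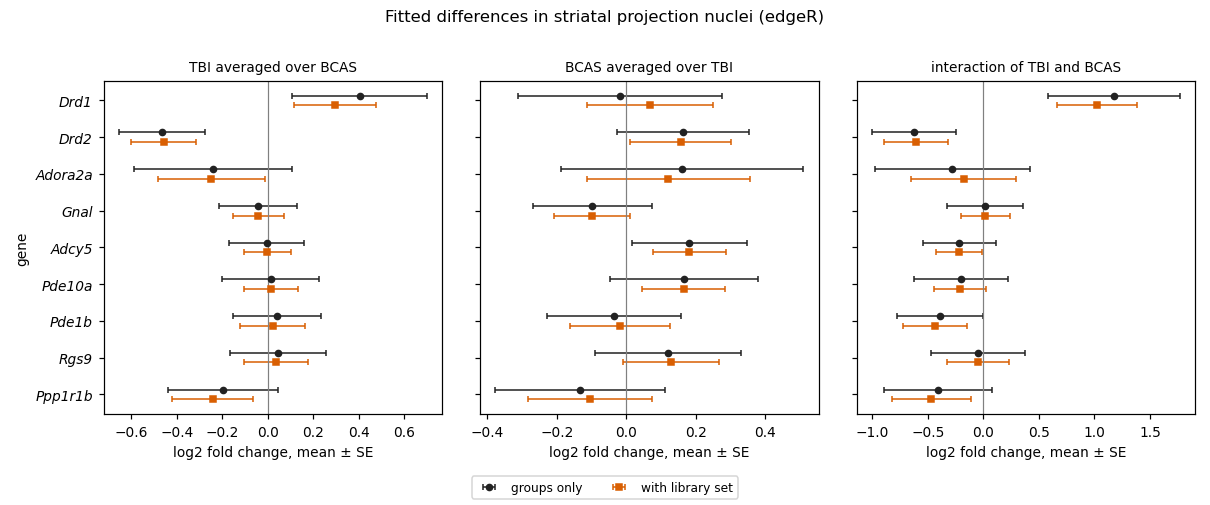
Fitted log2 fold change with SE of each gene in striatal projection nuclei for TBI, for BCAS and for their interaction (edgeR), without (circles) and with (squares) the library set as a term. Drd2 lies lowest for TBI at -0.46, Drd1 lies highest for the interaction at 1.18, and no value passed the adjusted test.

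No gene of the pathway lists was called in striatal nuclei in any of the 5 contrasts with the groups alone, and for TBI the list medians lay between -0.11 (G protein partners) and -0.03 (cyclic AMP and protein kinase A), leaving aside the other dopamine receptors, of which only Drd3 was tested (0.52), and the genes of dopamine synthesis, of which none was. The sum of the 3 hippocampal markers in striatal nuclei was 20.1 to 35.2 CPM with TBI and 36.0 to 52.9 CPM without, the 1 of 19 marker lists of other cell types that did not overlap between these arms. Its part in the differences with TBI was not tested. In other neurons the members did not differ by the adjusted edgeR test either: 7 of 9 could be tested in other GABAergic nuclei and 9 in excitatory nuclei, and none passed in any contrast, with or without the library set. Pde10a in excitatory nuclei ran from 506 CPM in BCAS 1 to 1002 CPM in control 2, with means of 663.2 CPM in set 1 and 906.6 CPM in set 2.

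The share of striatal nuclei did not separate the groups either. In the order control, BCAS, TBI, BCAS+TBI with 2 libraries each, it was 3.22, 1.72, 2.11, 3.72, 4.36, 2.40, 2.44 and 2.91% of nuclei. Libraries with TBI averaged 3.03 ± 0.916% and those without 2.69 ± 0.933% (SD, n = 4 each, exact two-sided permutation p = 0.657), and the difference was 0.971 percentage points in set 1 and -0.299 in set 2. For BCAS the means were 2.79 ± 0.698% and 2.93 ± 1.13% (exact permutation p = 0.886), with -1.28 points in set 1 and 1.02 in set 2. The smallest p that these 4 against 4 libraries allow is 0.0286, and each p adjusted over both surgeries is 0.886.
Among striatal nuclei with 1 of the 2 receptors, the Drd1-only share was 55.4, 40.7, 31.4, 46.7, 56.7, 47.2, 53.0 and 58.8% in the same order. It averaged 53.9 ± 5.05% with TBI and 43.5 ± 10.1% without (SD, n = 4 each, exact two-sided permutation p = 0.114, adjusted over both surgeries 0.229), a difference of 10.4 points that did not pass the test. Within sets it was 14.3 and 6.45 points (exact permutation within sets p = 0.0556, the smallest possible there). In the nuclei that pass the gate singly inside GABAergic clusters, the difference was 1.99 points (exact permutation p = 0.886). This comparison was added after the values were seen. For BCAS the difference was -2.54 points (exact permutation p = 0.714), with opposite signs in the 2 sets (-11.0 and 5.90).

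Outside the striatal class the 9 genes had separate second sites. Drd2 was higher in a cluster of 65 nuclei led by the dopamine transport and synthesis genes Slc6a3, Slc18a2, Ddc and Th than in striatal nuclei: 268 CPM pooled, from 157 UMIs in 48 of 65 nuclei, against 139.9 CPM. It ran there from 64.2 to 390.7 CPM over libraries of 4 to 13 nuclei each, so single values rest on few nuclei. In that cluster Slc18a2 was at 980 CPM, Ddc at 876, Slc6a3 at 784 and Th at 213 CPM, while striatal nuclei held 2 UMIs of Th and 1 of Slc6a3. Drd1 was next highest in an ependymal-like cluster (47.3 CPM from 48 UMIs, 0 to 75.0 CPM over libraries), in an excitatory cluster led by Nr4a2, Ntng2 and Oprk1 (28.7 CPM) and in layer 6 corticothalamic-like nuclei (14.3 CPM), against 83.3 CPM in striatal nuclei.
Adora2a was next highest in mural-like nuclei of vessels (58.1 CPM from 34 UMIs). Ppp1r1b was at 114 CPM in choroid plexus-like nuclei, 78.8 to 141 CPM over libraries, above its pooled striatal level of 70.6 CPM. Rgs9 was next highest in oligodendrocyte precursor-like nuclei (69.6 CPM) and Adcy5 in fibroblast-like nuclei (274 CPM). Pde1b was next highest in microglia-like (65.2 CPM) and dentate granule-like nuclei (57.5 CPM), and Gnal in dentate granule-like (166 CPM) and thalamic-like nuclei (162 CPM). Pde10a reached 1059 CPM in mid-layer cortical-like nuclei, with 443.1 to 1335 CPM over libraries. The highest cluster outside the striatal class was a different one for each of the 9 genes.
Over the 35 clusters, the gene most like the mean of the 9 members was Mhrt (Pearson r of log2 CPM 0.84, a description with clusters sharing libraries), followed by Ric8b (0.78) and Arel1 (0.70), among 8308 genes. Mhrt (0.64) and Cpne5 (0.59) were among the 3 most like Drd1. Dlk1 (0.74), Ret (0.74) and Slc6a3 (0.74) were most like Drd2, and the striatal levels of these 3 were 5.87, 1.86 and 0.143 CPM.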

How the data were processed

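The authors deposited 1 matrix of raw UMI counts for each library, not normalized, and the file headers name Cell Ranger 7.0.0. The submitters' processing notes name GRCm38, mm10 and Seurat. The annotation release, the strand setting and the treatment of introns are not given in the sources used here. GENCODE M21 held 54079 of the 54232 feature IDs and gave coordinates.

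Barcodes under 500 UMIs or 300 genes, or with over 5% of UMIs mitochondrial, were left out (4922 barcodes). The automatic Scrublet threshold (scanpy 1.11.5) marked 12.8% of barcodes in control 1 and at most 0.0525% in the others, so the 6% with the highest score per library were removed (2903 barcodes). Leiden clusters (igraph 0.11.9, resolution 1, 3000 variable genes without the members, 30 components, 15 neighbours, no integration) were classed by the ratio of mean UMIs of GABAergic to excitatory markers, at least 5 either way. That ratio has no pseudocount, which was decided after the data were seen; folds of the gate genes used a pseudocount of 10 CPM. Clusters with neither ratio stayed outside the 3 classes. Cell names are by markers, hence "-like".

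Counts were summed per library and class. edgeR 4.0.16 (R 4.3.3; TMM, filterByExpr, quasi-likelihood, two-sided) fitted group over all 8 libraries, with Benjamini-Hochberg adjustment over all genes of the 3 neuron classes at 0.05. The 2 comparisons of kinds of nuclei had library as a block. Replicate numbers do not pair the samples over all groups. In striatal nuclei, same-numbered deviations correlated from 0.41 to 0.46 among control, BCAS and TBI. Between these groups and BCAS+TBI, whose numbers are crossed over the library sets, they correlated from -0.58 to -0.49. Deviations were taken from the mean of the 2 libraries of a group, so those 2 are mirror images. Correlations between unlike numbers therefore have the same size and the opposite sign. The edgeR fits of TBI in striatal nuclei and of Drd1-only against Drd2-only nuclei were checked on simulated counts with the same fixed spread for every gene. Intervals and shares carry counting error only. Alternatives were DESeq2 1.42.0, RLE, no filter, blocks, other classes and each library left out. The members were named in full, listed genes past the threshold up to 4 per list by p-value, and the 3 most similar genes. The members, lists and tests were chosen with earlier results of these data known. Gpr52 of the lists did not match the tables. Another gene that these rules name is not reported here.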

Additional observations from a re-analysis of the deposited data

Results flagged for a closer look

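Each gene was checked in striatal nuclei for a library far from the others among the 4 with and the 4 without each surgery, 36 checks in all, of which chance alone flags about 1 in 20. A single value stood apart: among the libraries with BCAS surgery, Pde10a was at 2624 CPM in BCAS 2, while the other 3 lay between 2274 and 2326 CPM, so the gap made up 0.852 of the whole range, above Dixon's critical value for 4 samples. TBI 1, without BCAS, was higher still at 2680 CPM.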

How the results depend on the processing

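No member passed the adjusted test between groups under any setting, and 9 and 1 members stayed called in the comparisons by gate and by receptor under every setting run, each library left out included. Among refitted log2 differences of members between groups, 1105 kept their sign and 155, none called, changed it. With the library set as a block, the TBI contrast had 2 calls, BCAS+TBI against control had 2 and the others 0; for BCAS+TBI this block is the crossed pairing of the replicate numbers. With the set and DESeq2, calls were 1 for TBI, 1 for BCAS, 2 for BCAS+TBI against control and 2 against TBI, and with the larger sub-cluster 2 for BCAS+TBI against control. Without a filter on low counts they were 7 for TBI, 14 for BCAS, 6 for the interaction, 7 for BCAS+TBI against control and 5 against TBI. The replicate block gave 0 calls in each contrast, and so did leaving out each library (0 to 0). With the set as a block and 1 library left out, calls ranged from 3 to 21 for TBI (21 without BCAS 1, 15 without TBI 1, 12 without BCAS 2), 0 to 18 for BCAS (11 without BCAS+TBI 1), 1 to 13 for the interaction, 2 to 14 for BCAS+TBI against control (10 without control 1) and 0 to 14 against TBI. The cause was not tested. The TBI difference in the share of striatal nuclei was -0.0428 points with the nucleus gate, and -0.107 to 0.678 with each library left out, lowest without TBI 1; for BCAS that range was -0.532 to 0.346, above 0 without BCAS 1 or TBI 1. The Drd1-only share differed by 6.33 to 14.3 points with TBI and by -6.31 to 2.82 with BCAS over the same omissions, above 0 without BCAS 1. Thinning to 2000 UMIs took the shares of nuclei with Drd1, Drd2 and both to 14.7%, 16.9% and 0.0835%. A 4-fold gate was not run because no cluster passed it. The library set, its own alternatives, the sub-cluster and the Drd1-only share were chosen after seeing the data.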
